A study of Mus musculus with 12 samples.

Results

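Egr1, Egr2, Egr3, Nab1, Nab2, Nr4a1, Nr4a2 and Nr4a3 are regulators of transcription that many cells switch on soon after a signal, together with the co-repressors that hold them in check. These 8 genes were selected with their measured FPKM (fragments per kilobase of transcript, scaled per M mapped fragments; M stands for mega) already known, and were found by symbol among the 28019 genes and loci of the deposited expression table. Because the same FPKM guided the selection, the levels of the 8 genes and the differences between groups are given as a description. Their calls in a fit across all genes are counted beside the share of all genes called, and nothing is read from those counts.

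The study set out to characterise 3 classes of CpG oligodeoxynucleotide (ODN) in B cells. Splenic B cells of BALB/c mice aged 42 to 49 days were cultured for 24 h in serum-containing RPMI, either without ODN (control) or with 1 µM of CpG-A, CpG-B or CpG-C, and each of the 4 groups held 3 RNA-seq libraries. CpG ODNs are short synthetic DNAs whose unmethylated CpG motifs engage the endosomal receptor TLR9. As background, a palindromic phosphodiester core flanked by phosphorothioate poly-G tails defines class A, a phosphorothioate backbone throughout defines class B, and class C joins such a backbone to a palindrome. The sources used here do not give the ODN sequences, the purification of the B cells or any vehicle in the control. The labels do not say whether libraries of a group came from separate cultures or animals, so the intervals and p-values measure only the spread between libraries, which may be technical. In bulk RNA of this kind, a smaller share of cells of a type and less RNA per cell cannot be told apart.

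Egr1, Egr2 and Egr3 encode zinc finger transcription factors that bind GC-rich DNA, and Nab1 and Nab2 encode co-repressors that bind the Egr proteins and recruit the NuRD complex. Nab2 is itself a target of Egr factors in other cells, which makes the pair a feedback loop. Nr4a1 (Nur77), Nr4a2 (Nurr1) and Nr4a3 (Nor1) encode orphan nuclear receptors that act without a known physiological ligand in lymphocytes. In B cells, antigen receptor signals through ERK and through calcineurin and NFAT induce both families, and Nr4a1 is widely used as a reporter of antigen receptor signalling.

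Promoter sequences are shown for the members that held a CArG box, a CRE core or an EGR site, since binding sites near the start of a gene are how the known activators (SRF, CREB) and the Egr proteins themselves reach these genes. RefSeq (GRCm38.p6) windows of 250 bases before to 50 after the start were used for 6 of the 8 genes, not for Egr1 and Egr3. Of the 5 windows listed for Egr2, the one at the start given in the deposited table was taken. Motifs were searched on both strands. In the sequences below, written 5′ to 3′ on the strand of the gene, capitals mark the CArG box (CC, 6 bases of A or T, GG), the CRE core (TGACG, or CGTCA on the other strand) and the EGR site (GCG, any base, GGGCG, or its complement). The windows are chr10:67537619-67537918 (plus strand) for Egr2, chr1:52500399-52500698 (minus strand) for Nab1, chr15:101266596-101266895 (plus strand) for Nr4a1, chr2:57123954-57124253 (minus strand) for Nr4a2 and chr4:48045055-48045354 (plus strand) for Nr4a3.
Egr2: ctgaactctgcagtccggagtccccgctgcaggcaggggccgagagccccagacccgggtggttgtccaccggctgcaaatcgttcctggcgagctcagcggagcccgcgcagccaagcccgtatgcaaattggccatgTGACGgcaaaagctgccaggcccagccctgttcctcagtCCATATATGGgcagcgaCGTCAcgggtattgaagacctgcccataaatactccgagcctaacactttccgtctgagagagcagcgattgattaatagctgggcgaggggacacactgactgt
Nab1: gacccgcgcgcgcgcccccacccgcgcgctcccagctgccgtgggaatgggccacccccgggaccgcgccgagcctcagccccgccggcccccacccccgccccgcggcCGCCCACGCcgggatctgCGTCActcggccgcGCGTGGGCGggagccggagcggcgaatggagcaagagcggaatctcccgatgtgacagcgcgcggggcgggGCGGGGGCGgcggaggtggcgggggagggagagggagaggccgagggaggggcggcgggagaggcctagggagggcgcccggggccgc
Nr4a1: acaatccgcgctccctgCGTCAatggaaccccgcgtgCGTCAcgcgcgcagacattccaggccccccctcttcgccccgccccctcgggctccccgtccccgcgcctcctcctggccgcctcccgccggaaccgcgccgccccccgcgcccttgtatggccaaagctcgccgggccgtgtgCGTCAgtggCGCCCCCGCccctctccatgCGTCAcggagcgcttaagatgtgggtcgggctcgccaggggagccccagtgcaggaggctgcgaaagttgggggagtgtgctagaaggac
Nr4a2: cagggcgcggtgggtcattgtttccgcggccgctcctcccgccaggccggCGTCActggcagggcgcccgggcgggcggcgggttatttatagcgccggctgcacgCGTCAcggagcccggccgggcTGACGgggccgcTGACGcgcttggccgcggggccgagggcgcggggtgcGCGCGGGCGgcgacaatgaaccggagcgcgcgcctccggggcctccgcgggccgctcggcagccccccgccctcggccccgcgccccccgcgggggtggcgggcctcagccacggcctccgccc
Nr4a3: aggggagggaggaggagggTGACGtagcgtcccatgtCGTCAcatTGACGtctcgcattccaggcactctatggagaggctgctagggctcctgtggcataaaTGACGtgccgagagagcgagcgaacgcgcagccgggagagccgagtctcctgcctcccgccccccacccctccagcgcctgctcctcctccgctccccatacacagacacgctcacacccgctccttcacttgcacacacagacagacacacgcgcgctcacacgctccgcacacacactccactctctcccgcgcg

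The Nr4a windows shared a run of CRE cores, with 4 in each of Nr4a1, Nr4a2 and Nr4a3, against 2 in Egr2, 1 in Nab1 and 0 in Nab2. At least 1 CRE core was present in 20.8% of the 32851 promoter windows of the table. A CArG box, the site of serum response factor, was found in Egr2 alone among the 6, with its first base at position -72 from the start and a CRE core at -55, and 1.63% of all windows held one. The EGR site was found 3 times in Nab1 (first bases at -141, -109 and -38), once each in Nr4a1 (-60) and Nr4a2 (-74), and in 5.55% of all windows. The full palindromic CRE, which is TGACG joined to TCA and so contains the core, was in 0 of the 6 windows (1.79% of all). The NBRE, the site that an Nr4a monomer binds (AAA joined to GGTCA), was also in 0 of the 6 (1.51% of all). A TATA box (TATAAA) was in 1 window, that of Nr4a2 (13.6% of all), and a kappaB motif (GGG, any 5 bases, CC, which can overlap an EGR site) was in 5 windows, as it was in 50.8% of all. For Nr4a1 the RefSeq window starts from an internal start and not from the first base of the gene in the deposited table. A match describes letters only and says nothing about binding in these cells.

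Depth and purity bear on the low members. The libraries were estimated at 14.45 to 25.95 M fragments, lowest in the control (at most 17.55). B cell markers were expressed throughout (8 of 8 above 1 FPKM in every group, summed level 2679 to 4541 FPKM). The control carried more signal at genes that B cells do not use: 1000 olfactory receptor genes averaged 0.203 ± 0.0473 FPKM (SD, n = 3) in the control, 0.0482 ± 0.0134 after CpG-A, 0.0137 ± 0.000629 after CpG-B and 0.0118 ± 0.0032 after CpG-C. The part of this low signal in the control values was not tested. The third libraries of CpG-B and CpG-C stood apart from the other libraries of their groups, so values without them are given where they matter.

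For 7 of the 8 genes, all but Nab1, the lowest group mean was that of CpG-B, while the CpG-A mean was above the control for 4 genes (Egr1, Egr2, Nab1 and Nr4a3) and below it for the other 4, and the CpG-C mean lay between CpG-A and CpG-B for all 8. Every CpG-C library was above every CpG-B library for each of the 8 genes. Libraries were apart in this direction for 4.66% of the 15853 genes tested, which do not include Nr4a2. The share of all genes with each of the orders of group means above was not computed. As the 8 were selected on these values, nothing is read from any of these counts.

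**Figure D1:**
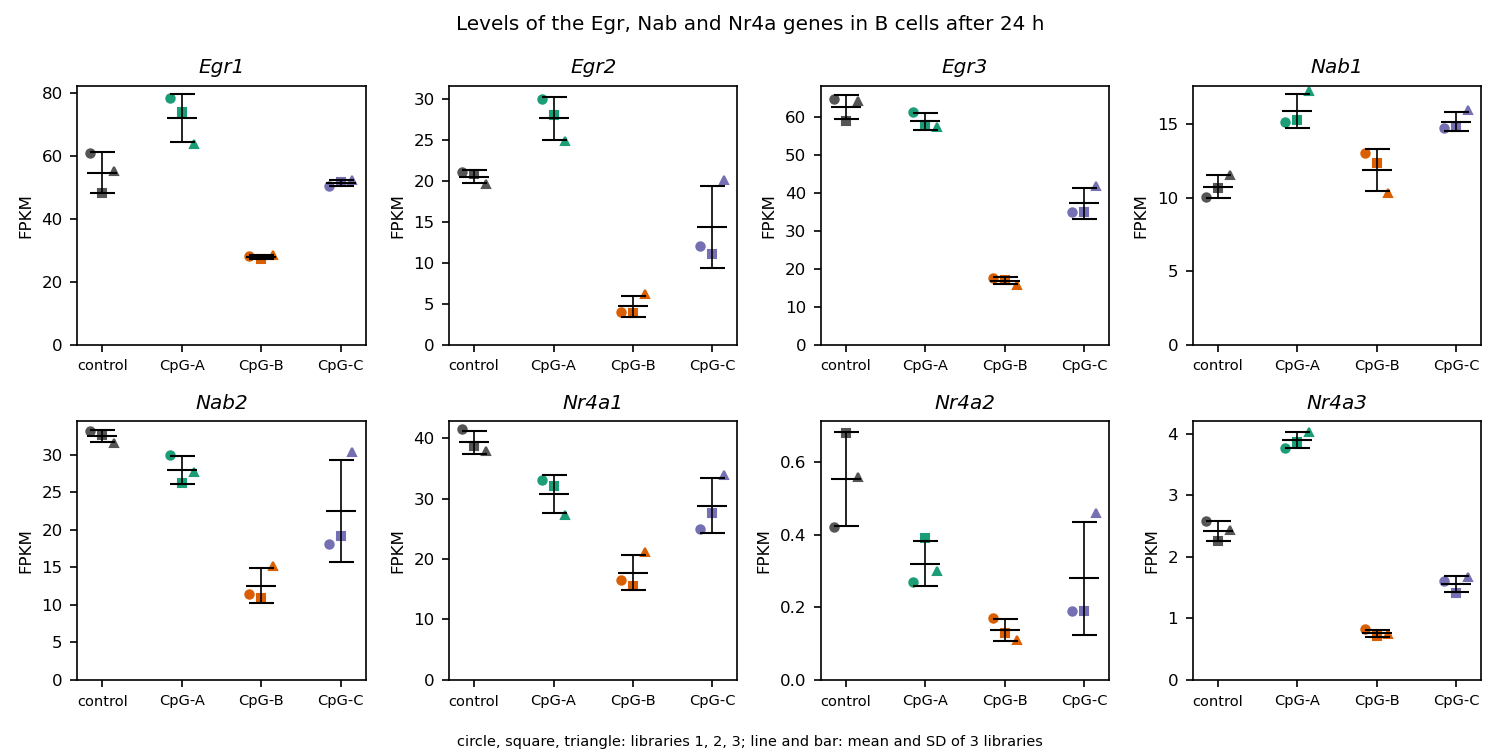
FPKM (vertical axis, from 0) of each of the 8 genes in the 12 libraries by group, with the mean and SD of 3 libraries. CpG-B is lowest for 7 genes, Nab1 has another shape, and the third CpG-C library (triangle) is the highest of its group in all 8 panels. The genes were selected on these values, so nothing is read from how many share an order of groups.

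Egr1 (gene 13653, chr18:34861207-34864956, plus strand, mm10 as in the deposited table) is the founding member of the Egr family. Its level was 60.82, 48 and 55.05 FPKM in the control libraries, 78.45, 73.75 and 63.65 after CpG-A, 28.03, 27.18 and 28.49 after CpG-B, and 50.42, 51.51 and 52.36 after CpG-C. All CpG-A libraries were above the control and all CpG-B libraries below it, whereas CpG-C lay within the control range. Means were 54.6 ± 6.42 (SD, n = 3) in the control, 72.0 ± 7.56 after CpG-A, 27.9 ± 0.665 after CpG-B and 51.4 ± 0.973 after CpG-C. Against the control the log2 difference of FPKM + 1 was 0.39 ± 0.09 (SE) after CpG-A, -0.94 ± 0.09 after CpG-B and -0.08 ± 0.09 after CpG-C (95% interval -0.28 to 0.13).

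Egr2 (gene 13654, chr10:67537869-67542188, plus strand), which restrains T cell activation and is a driver of peripheral tolerance, had the widest swing between group means as a ratio, though not in FPKM. It stood at 21.01, 20.81 and 19.55 FPKM in the control, at 29.98, 27.98 and 24.8 after CpG-A, at 3.99, 3.91 and 6.19 after CpG-B and at 11.97, 11.04 and 20.09 after CpG-C. CpG-A was above and CpG-B below all control libraries, and of the CpG-C libraries the third reached the control range while the other 2 were well under it. The CpG-B mean of 4.70 ± 1.29 FPKM was 23.0% of the control mean (20.5 ± 0.792) and 17.0% of the CpG-A mean (27.6 ± 2.61). The CpG-C mean was 14.4 ± 4.98 FPKM, and 11.5 without the third library. On the log2 scale of FPKM + 1, CpG-A lay 0.41 ± 0.20 (SE; 95% interval -0.02 to 0.84) and CpG-B -1.94 ± 0.20 from the control, and CpG-B lay -2.35 ± 0.20 from CpG-A. With library 3 of both CpG-B and CpG-C left out, which lowers the spread shared by all groups in the fit, the CpG-A difference was 0.41 ± 0.07.

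Egr3 (gene 13655, chr14:70077445-70082613, plus strand), a relative with overlapping functions in lymphocytes, had the highest control mean of the Egr genes. It measured 64.5, 58.89 and 63.97 FPKM in the control, 61.27, 57.68 and 57.2 after CpG-A, 17.51, 17.02 and 15.75 after CpG-B and 34.82, 34.86 and 41.86 after CpG-C. Here CpG-A overlapped the control, unlike for Egr1 and Egr2, while CpG-B and CpG-C were each apart from both and from each other. The log2 difference of FPKM + 1 from the control was -0.09 ± 0.08 (SE; 95% interval -0.27 to 0.10) after CpG-A, -1.84 ± 0.08 after CpG-B and -0.74 ± 0.08 after CpG-C. In mean level, CpG-B held 26.8% and CpG-C 59.5% of the control (62.5 ± 3.10 FPKM).

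The co-repressors did not move alike. Nab2 (gene 17937, chr10:127660918-127666703, minus strand) measured 33.18, 32.66 and 31.57 FPKM in the control, 29.9, 26.24 and 27.71 after CpG-A, 11.48, 10.91 and 15.2 after CpG-B and 18.05, 19.13 and 30.35 after CpG-C. All treated libraries were below all control libraries, and CpG-B was below every other library, but the third CpG-C library lay above those of CpG-A. The CpG-B mean, 12.5 ± 2.33 FPKM, was 38.6% of the control mean, 32.5 ± 0.822. CpG-C averaged 22.5 ± 6.81 FPKM, or 18.6 without the third library.

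Nab1 (gene 17936, chr1:52455849-52500448, minus strand) had another order of groups. It measured 10.03, 10.66 and 11.55 FPKM in the control, 15.14, 15.28 and 17.22 after CpG-A, 13.05, 12.33 and 10.31 after CpG-B and 14.75, 14.8 and 15.92 after CpG-C. CpG-A and CpG-C overlapped each other and were above all control and CpG-B libraries, while CpG-B overlapped the control. Means were 10.7 ± 0.764 FPKM in the control, 15.9 ± 1.16 after CpG-A, 11.9 ± 1.42 after CpG-B and 15.2 ± 0.662 after CpG-C. The log2 difference of FPKM + 1 from the control was 0.52 ± 0.10 (SE) after CpG-A, 0.13 ± 0.10 after CpG-B (95% interval -0.08 to 0.34) and 0.46 ± 0.10 after CpG-C. The sign for CpG-B turned with the scaling, to -0.15 under upper-quartile and TPM scaling.

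Nab2 is the one member whose span overlaps another gene in the deposited table. Its 3′ end shares 70 bases (chr10:127660918-127660987) with the opposite-strand Stat6, which encodes a transcription factor of interleukin-4 signalling. The sources used here do not say whether the authors' counting used strand, so reads from those bases cannot be assigned to either gene. Stat6 averaged 80.1 FPKM in the control, 70.1 after CpG-A, 46.0 after CpG-B and 52.9 after CpG-C, and the share of Nab2 that comes from the common bases was not tested.

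Nr4a1 (gene 15370, chr15:101253918-101274795, plus strand) supplied most of the Nr4a RNA. It measured 41.46, 38.64 and 37.85 FPKM in the control, 33.03, 32.11 and 27.25 after CpG-A, 16.57, 15.58 and 21.15 after CpG-B and 24.91, 27.68 and 33.82 after CpG-C. Every treated library was below every control library, CpG-B was lowest, and CpG-A and CpG-C overlapped. Group means were 39.3 ± 1.90 FPKM in the control, 30.8 ± 3.11 after CpG-A, 17.8 ± 2.97 after CpG-B and 28.8 ± 4.56 after CpG-C. The log2 differences of FPKM + 1 from the control were -0.35 ± 0.13 (SE), -1.11 ± 0.13 and -0.45 ± 0.13 in that order.

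Nr4a3 (gene 18124, chr4:48045305-48086446, plus strand) was the only member with all 4 groups apart. It was at 2.58, 2.26 and 2.44 FPKM in the control, 3.78, 3.87 and 4.04 after CpG-A, 0.82, 0.71 and 0.74 after CpG-B and 1.61, 1.42 and 1.67 after CpG-C. Every CpG-B library was thus below 1 FPKM, and the part of the low signal described above in the Nr4a3 values was not tested. The share of all genes with 4 groups apart was not computed. CpG-A, at 161% of the control mean, was above the control although Nr4a1 was below it there. CpG-B stood at 31.2% of the control mean and 19.4% of the CpG-A mean. At these levels the log2 difference of FPKM + 1 understates the ratio: it was 0.52 ± 0.09 (SE) after CpG-A, -0.96 ± 0.09 after CpG-B and -0.42 ± 0.09 after CpG-C, whereas the authors' deposited table lists log2 ratios of 0.75, -1.61 and -0.60.

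Nr4a2 (gene 18227, chr2:57107226-57124003, minus strand) never passed 1 FPKM in any library and was the one member not entered in the fit. It was at 0.42, 0.68 and 0.56 FPKM in the control, 0.27, 0.39 and 0.3 after CpG-A, 0.17, 0.13 and 0.11 after CpG-B and 0.19, 0.19 and 0.46 after CpG-C. The control values were above CpG-A and CpG-B, and the third CpG-C library lay within the control range. These levels stand for roughly 8 to 37 fragments a library, and the olfactory receptor genes above averaged 0.203 FPKM in the control against 0.0137 after CpG-B. The part of that signal in the lower Nr4a2 values of the treated groups was not tested, and no difference in expression is read from them. Without the third libraries the CpG-B and CpG-C means were 0.15 and 0.19 FPKM.

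Across the fit of all tested genes (limma, Benjamini-Hochberg adjusted p under 0.05), 7 of the 8 members were tested. Against the control, 3 of 7 passed as higher after CpG-A (Egr1, Nab1 and Nr4a3) and 1 as lower (Nr4a1), where 23.6% of all 15853 tested passed as higher and 42.1% as lower. After CpG-B, 0 of 7 were higher and 6 were lower, all but Nab1, against a background of 25.7% higher and 51.8% lower. After CpG-C, 1 was higher (Nab1) and 5 were lower, the remaining members except Egr1, against 26.1% and 51.3%. Among the 10860 known genes alone, without the unnamed loci, 32.8% passed as higher and 22.1% as lower after CpG-A. These shares were 34.8% and 35.3% after CpG-B and 35.7% and 34.5% after CpG-C. Since the members were selected on these same values, nothing is read from these counts. Some calls changed with the processing. Those lost were Egr1 after CpG-A under upper-quartile scaling, Nab1 after CpG-C under upper-quartile and TPM scaling, Nr4a1 after CpG-A without any 1 of 5 libraries (CpG-A 2 and 3, control 1, 2 and 3), and Egr2 after CpG-C without any 1 of 4 (CpG-C 1 and 2, control 1 and 2). Those gained were Egr1 as lower after CpG-C under upper-quartile and TPM scaling, Egr3 as lower after CpG-A under each of the 3 other scalings tried, and Nab2 as lower after CpG-A under upper-quartile scaling. With library 3 of both CpG-B and CpG-C left out, Egr2 passed as higher and Nab2 as lower after CpG-A, both of which also passed with CpG-A and the control fitted alone, and Nab1 passed as higher after CpG-B. The median log2 difference of the 7 was 0.39 after CpG-A, -1.11 after CpG-B and -0.45 after CpG-C. For all tested it was -0.16, -0.32 and -0.31, and for known genes alone 0.049, 0.002 and 0.015. Nothing is read from the distance between these medians, for the same reason. CpG-B libraries were apart below the control for 7 of the 8 members, as they were for 53.3% of all tested.

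**Figure D2:**
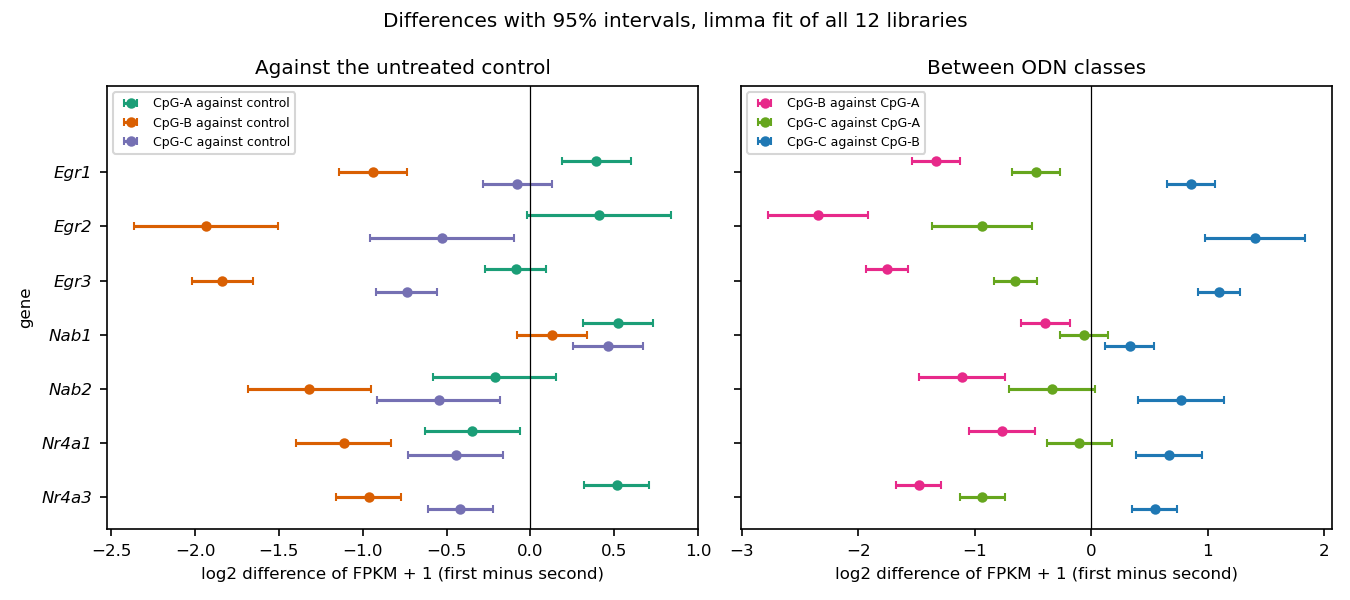
Log2 difference of FPKM + 1 (horizontal axis, first group minus second) with its 95% interval for the 7 members tested, against the control (left) and between ODN classes (right). CpG-B lies left of 0 against the control for all but Nab1, from -1.94 for Egr2 to -0.94 for Egr1, and CpG-C lies right of 0 against CpG-B for all 7.

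Between ODN classes, CpG-B had the lowest mean for all 8 members. Compared with CpG-A, 7 of 7 members passed as lower after CpG-B, where 31.5% of all tested did, and all 8 were apart, as 51.9% of all tested were. Nothing is read from these counts or from those that follow, for the same reason as above. The log2 difference of FPKM + 1 ran from -0.39 ± 0.10 (SE) for Nab1 to -2.35 ± 0.20 for Egr2. CpG-C, compared with CpG-A, was lower for 4 of 7 (Egr1, Egr2, Egr3 and Nr4a3; background 29.3%). Nab1, Nab2 and Nr4a1 did not pass there, with 95% intervals of -0.27 to 0.15, -0.70 to 0.03 and -0.38 to 0.18, and their libraries overlapped. Nab2 depended on 1 library: its difference was -0.34 with all libraries and -0.56 without the third CpG-C library, where it passed as lower, as it did under TPM scaling.

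CpG-C and CpG-B, which by class share a phosphorothioate backbone and differ in the palindrome, were compared at the same dose and time. The 7 tested members were 1.27-fold (Nab1) to 3.06-fold (Egr2) higher in mean FPKM after CpG-C. Of all tested, 0.114% passed as higher and 0.0694% as lower after CpG-C (18 and 11 genes), and Egr1, Egr2, Egr3 and Nr4a3 were among those higher. Since the 8 genes were selected on these values, nothing is read from that count. The log2 difference of FPKM + 1 was 1.41 ± 0.20 (SE) for Egr2 (14.4 against 4.70 FPKM), 1.10 ± 0.08 for Egr3 (37.2 against 16.8), 0.86 ± 0.09 for Egr1 (51.4 against 27.9) and 0.55 ± 0.09 for Nr4a3 (1.57 against 0.757). Nab2, Nr4a1 and Nab1 were also apart but did not pass, at 0.77 ± 0.17, 0.67 ± 0.13 and 0.33 ± 0.10. Without the third libraries of both groups the differences were 1.34 for Egr2, 0.97 for Egr3, 0.86 for Egr1, 0.51 for Nr4a3, 0.68 for Nab2, 0.68 for Nr4a1 and 0.20 for Nab1, and there Nab2 and Nr4a1 passed while Nr4a3 did not. The calls depended on the fit. With the replicate number as a block across all 12 libraries 3 members passed, Nr4a3 no longer among them. With the CpG-B and CpG-C libraries alone, 0 of 7 members and 0 genes passed limma's adjusted p. In that fit 7 members and 973 genes (6.14% of all tested) had an unadjusted p under 0.05. Leaving out 1 library left 1 to 4 members called: Egr3 stayed called without each of the 6, Nr4a3 was lost without each of the 6, Egr1 was lost without the first CpG-C library, and Egr2 was lost without the first or second CpG-B library or the first CpG-C library.

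Ratios within a library do not depend on how libraries are scaled to each other, and they differed between groups within each family. The summed Egr level was 138 ± 9.36 FPKM in the control, 158 ± 12.1 after CpG-A, 49.4 ± 1.17 after CpG-B and 103 ± 9.81 after CpG-C. The summed Nab level was 43.2 ± 0.1002, 43.8 ± 2.001, 24.4 ± 1.14 and 37.7 ± 7.47 FPKM in the same order, with 32.8, 33.9 and 46.3 in CpG-C libraries 1 to 3. Nab RNA per Egr RNA was therefore highest after CpG-B, at 0.483 to 0.506, against 0.295 to 0.339 in the control, 0.260 to 0.309 after CpG-A and 0.337 to 0.405 after CpG-C. The balance of the co-repressors shifted from Nab2 towards Nab1: Nab2 over Nab1 was 2.73 to 3.31 in the control, 1.61 to 1.98 after CpG-A, 1.22 to 1.91 after CpG-C and 0.880 to 1.47 after CpG-B. All treated libraries were below all control libraries in that ratio, after CpG-A and CpG-B apart from each other and CpG-C overlapping both. The overlaps rested on the third libraries, at 1.91 after CpG-C and 1.47 after CpG-B. Libraries 1 and 2 stood at 1.22 and 1.29 after CpG-C and at 0.880 and 0.885 after CpG-B.

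Within the Egr genes, Egr2 over Egr1 was 0.378 ± 0.0483 in the control and 0.384 ± 0.0053 after CpG-A, 0.168 ± 0.0428 after CpG-B and 0.279 ± 0.0919 after CpG-C. CpG-C libraries 1 and 2 stood at 0.237 and 0.214, and the third at 0.384. Egr3 over Egr1 was highest in the control (1.15 ± 0.0839) against 0.821 ± 0.0676 after CpG-A, 0.722 ± 0.0672 after CpG-C and 0.601 ± 0.0419 after CpG-B. Egr1 accordingly made up 39.6% of the Egr sum in the control and 56.5% after CpG-B. Among the Nr4a genes, Nr4a1 made up 92.9% of the summed level in the control, 87.9% after CpG-A, 95.1% after CpG-B and 93.9% after CpG-C. Nr4a3 over Nr4a1 was 0.114 to 0.148 after CpG-A and at most 0.0646 in every other library.

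**Figure D3:**
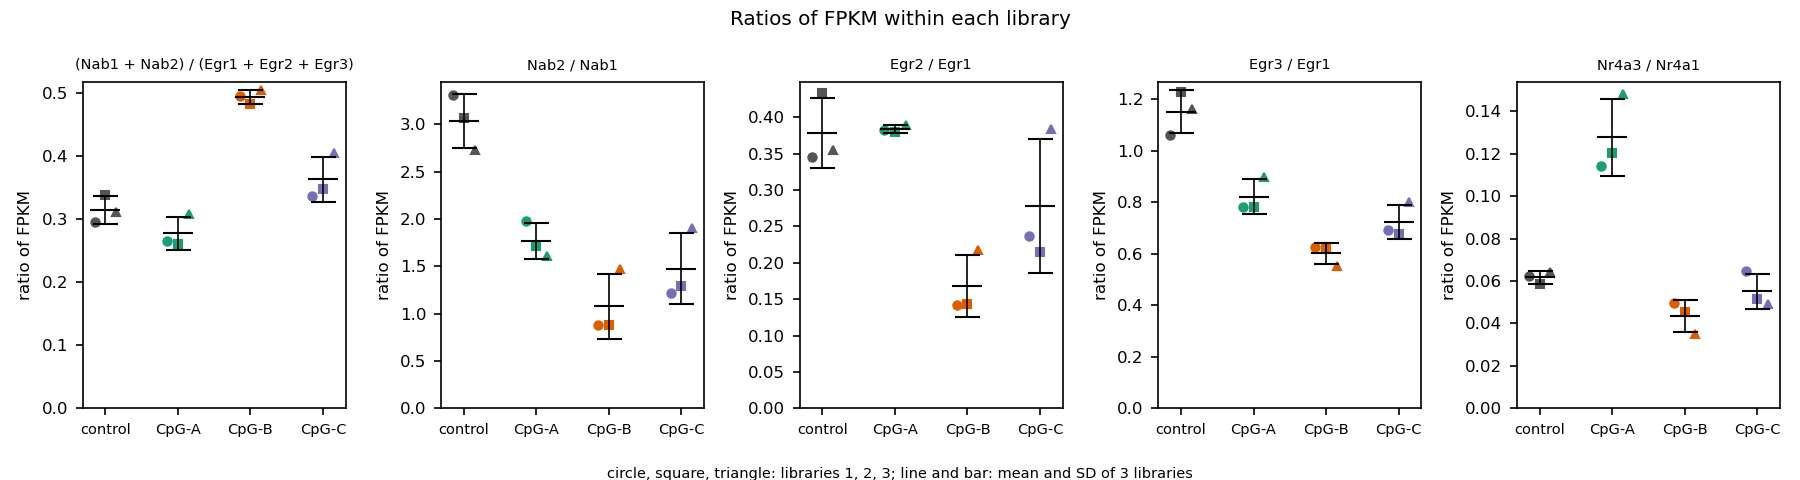
Ratios of FPKM within each of the 12 libraries (vertical axes, from 0), with the mean and SD of 3 libraries per group. Nab per Egr is highest after CpG-B (0.483 to 0.506), Nab2 over Nab1 is highest in the control, and Nr4a3 over Nr4a1 is highest after CpG-A.

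Across the 12 libraries the tested members other than Nab1 had similar shapes. Pearson's r of log2(FPKM + 1), given as a description over libraries that share their 4 groups, was 0.95 between Egr1 and Egr2, 0.95 between Egr2 and Egr3 and 0.97 between Nab2 and Nr4a1, but -0.07 between Nab1 and Nr4a1 and 0.06 between Nab1 and Nab2. Among the tested members other than Nab1, r ran from 0.72 (Nr4a1 with Nr4a3) to 0.97. With Nab1 it was at most 0.44 (Egr1). Of 8089 known genes with a mean of at least 5 FPKM, Sh2d2a, which encodes an SH2-domain adaptor studied mainly in T cells, was the closest to both Egr1 (r = 0.97) and Egr2 (0.98), followed by Egr2 and Ctcf for Egr1 and by Tle4 and Tagap for Egr2. Pacsin1 (0.98), the adaptor gene Sh2b2 (0.98) and Dtx4 (0.97) were closest to Egr3. For Nab2 these were Nr4a1, Sh2b2 and Gm21948, and for Nr4a1 they were Nab2, Myo1f and Gm21948. Closest to Nr4a3 were Nfkb1 and Nfkbie, which encode a subunit and an inhibitor of NF-kappaB (0.98 each), and Lck, a Src family kinase (0.98), and closest to Nab1 were Aggf1, Tnpo3 and Vps35 (0.95 each). With a pseudocount of 0.1 in place of 1 the third place of Nab2 and the second of Egr2 went to Egr2 and Egr3, and Nr4a3 was closest to Lck, Sh2d2a and Srsf10.

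Of 28 other immediate-early genes, 27 were tested: 4 were higher and 13 lower after CpG-A, 7 and 15 after CpG-B, and 10 and 15 after CpG-C against the control (limma, Benjamini-Hochberg). Of all tested, 23.6% were higher and 42.1% lower after CpG-A, 25.7% and 51.8% after CpG-B and 26.1% and 51.3% after CpG-C. All list genes are known genes, of which 32.8% were higher and 22.1% lower after CpG-A. For known genes these shares were 34.8% and 35.3% after CpG-B and 35.7% and 34.5% after CpG-C. Both sets of shares stand beside the counts of all 5 lists. No split of a list into higher and lower is read as particular to it. The median log2 difference was -0.22, -0.43 and -0.48, beside -0.16, -0.32 and -0.31 for all tested and 0.049, 0.002 and 0.015 for known genes alone. The AP-1 genes Fosb and Fos had the largest falls: Fosb went from 23.3 ± 3.26 FPKM (SD, n = 3) in the control to 2.04 ± 0.872 after CpG-A (adjusted p 2.53e-07) and 0.240 ± 0.0964 after CpG-B (adjusted p 2.70e-09), and Fos from 19.3 ± 2.2 to 3.65 ± 0.599 and 0.903 ± 0.236. For every list gene said to rise or fall, the libraries of the groups compared did not overlap. Trib1, a pseudokinase gene, rose from 2.36 ± 0.314 FPKM to 6.30 ± 0.485 after CpG-A, 12.4 ± 2.02 after CpG-B and 11.2 ± 1.36 after CpG-C (adjusted p at most 1.81e-05). Sik1, a salt-inducible kinase gene, rose from 8.06 ± 1.19 FPKM to 14.6 ± 1.88, 19.3 ± 2.98 and 20.6 ± 3.94 in the same order (adjusted p at most 0.000901). Nfil3, which encodes a bZIP repressor, rose from 0.620 ± 0.0624 FPKM to 16.0 ± 12.4 after CpG-B and 12.5 ± 7.38 after CpG-C, with a wide spread between libraries. Fosb and Fos averaged 0.287 ± 0.0764 and 1.27 ± 0.180 FPKM after CpG-C. In the comparison of CpG-C with CpG-B, 0 of the 27 passed as higher and 1, Jun, as lower (31.8 ± 1.96 after CpG-C against 46.4 ± 0.525 FPKM after CpG-B, limma, adjusted p 0.0104).

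The ERK list, 33 of whose 34 genes were tested, gave mixed counts: 9 were higher and 5 lower after CpG-A, 12 and 11 after CpG-B and 11 and 12 after CpG-C, with medians of -0.02, 0.02 and 0.10. The balance after CpG-A turned with the scaling, to 5 higher and 9 lower under median-of-ratios, 5 and 13 under upper-quartile and 5 and 8 under TPM scaling. The kinase gene Rps6ka1 rose from 30.8 ± 3.49 FPKM to 55.4 ± 1.01 after CpG-A (limma, adjusted p 6.98e-06). It averaged 48.6 ± 1.02 after CpG-B and 50.3 ± 0.117 after CpG-C. Dusp4, an ERK phosphatase, rose from 12.5 ± 1.07 FPKM to 21.4 ± 1.61 after CpG-A and 26.7 ± 5.92 after CpG-C. Its mean after CpG-B was 17.1 ± 1.73. Spred2, an inhibitor of the pathway, rose from 1.16 ± 0.130 to 5.15 ± 0.305 FPKM after CpG-C (limma, adjusted p 1.63e-07). It averaged 2.23 ± 0.128 after CpG-A and 4.26 ± 0.616 after CpG-B. Rps6ka5, which encodes the kinase MSK1, fell from 8.72 ± 0.248 FPKM to 4.78 ± 0.119, 2.89 ± 0.427 and 2.94 ± 0.566 after CpG-A, CpG-B and CpG-C. Elk4, a partner of SRF, fell from 56.0 ± 3.77 FPKM to 36.7 ± 1.496 after CpG-A, 39.3 ± 1.36 after CpG-B and 34.4 ± 4.76 after CpG-C. Elk1 rose from 3.45 ± 0.674 FPKM to 6.63 ± 1.17 after CpG-B and 6.76 ± 0.716 after CpG-C, and stood at 4.74 ± 0.624 after CpG-A, where it passed but libraries overlapped the control. Mapk3 (ERK1) rose after CpG-B from 46.8 ± 1.39 to 76.2 ± 13.8 FPKM (limma, adjusted p 0.00423), a call lost under upper-quartile and TPM scaling. Its mean was 49.8 ± 4.365 after CpG-A and 89.3 ± 23.2 after CpG-C. Rasgrp1 fell after CpG-B from 30.1 ± 2.50 to 16.7 ± 3.75 FPKM, and averaged 23.6 ± 0.148 after CpG-A and 17.5 ± 3.38 after CpG-C. Dusp6 fell after CpG-C from 24.7 ± 1.65 to 13.6 ± 3.75 FPKM, and averaged 20.2 ± 0.702 after CpG-A and 14.8 ± 3.97 after CpG-B.

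All 26 genes of the calcineurin and NFAT list were tested. After CpG-A 4 were higher and 6 lower, after CpG-B 4 and 11, and after CpG-C 6 and 9, with medians of 0.01, -0.11 and -0.10. Calm3, a calmodulin gene, rose from 58.5 ± 4.23 FPKM to 91.4 ± 9.37 after CpG-A, 115 ± 10.5 after CpG-B and 129 ± 9.85 after CpG-C (limma, adjusted p at most 0.000123). Orai2, a subunit of store-operated calcium channels, fell from 35.1 ± 1.82 to 17.2 ± 1.31, 12.1 ± 0.520 and 11.6 ± 0.384 FPKM, and Orai1 rose after CpG-A from 13.5 ± 0.945 to 19.3 ± 0.815. Ppp3cc, a calcineurin catalytic subunit, rose after CpG-B from 46.0 ± 1.48 to 78.2 ± 5.70 FPKM. It averaged 53.7 ± 3.467 after CpG-A and 67.4 ± 1.649 after CpG-C. Cabin1, an inhibitor of calcineurin, fell after CpG-A from 33.1 ± 0.991 to 24.8 ± 2.14 FPKM. Its mean was lower still after CpG-B (20.47 ± 1.731) and CpG-C (19.3 ± 1.202). Nfat5 fell after CpG-B from 22.2 ± 1.06 to 7.21 ± 2.997 FPKM and after CpG-C to 8.69 ± 2.30. Between CpG-C and CpG-B, 0 genes of the ERK list and 0 of the calcineurin list passed in either direction.

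Partners and reported targets of the Egr and Nab proteins (18 of 20 tested) gave 8 higher and 2 lower after CpG-A, 7 and 6 after CpG-B and 7 and 5 after CpG-C, with medians of 0.26, 0.01 and 0.06. After CpG-A the counts became 5 higher and 6 lower under upper-quartile scaling, and 5 were lower under median-of-ratios and under TPM scaling. Lag3, an inhibitory receptor gene that Egr2 activates in T cells, rose from 1.84 ± 0.2501 FPKM to 12.3 ± 1.86 after CpG-A and 10.9 ± 0.361 after CpG-C (limma, adjusted p at most 3.51e-07), and averaged 6.72 ± 1.30 after CpG-B. Cblb, a ubiquitin ligase gene of T cell anergy, rose from 14.6 ± 0.356 to 24.3 ± 1.17 FPKM after CpG-A. It averaged 43.0 ± 8.58 after CpG-B and 41.7 ± 9.55 after CpG-C. Socs1, a brake on cytokine signalling, rose from 1.62 ± 0.282 to 11.6 ± 1.01 FPKM after CpG-B and 11.1 ± 3.30 after CpG-C. Its mean after CpG-A was 3.74 ± 0.834. Cdkn1a, the gene of the cell cycle inhibitor p21, rose after CpG-B from 1.46 ± 0.211 to 10.6 ± 0.656 FPKM. Its mean was 2.86 ± 0.355 after CpG-A and 7.35 ± 0.391 after CpG-C. Dgka, a diacylglycerol kinase gene, fell from 147 ± 5.13 to 64.6 ± 4.10, 37.6 ± 6.28 and 34.9 ± 10.3 FPKM after CpG-A, CpG-B and CpG-C. Id3, which Egr factors activate in developing T cells, fell after CpG-A from 117 ± 10.2 to 89.9 ± 6.67 FPKM. It averaged 53.2 ± 0.454 after CpG-B and 48.0 ± 5.63 after CpG-C. Nfkbid fell after CpG-B from 41.5 ± 0.856 to 12.7 ± 3.44 FPKM and after CpG-C to 15.0 ± 2.41.

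Of the partners and reported targets of the Nr4a receptors, 16 of 19 were tested, with 8 higher and 1 lower after CpG-A, 7 and 5 after CpG-B and 7 and 4 after CpG-C, and medians of 0.34, 0.13 and 0.14. Those lower after CpG-B and after CpG-C numbered 8 each under upper-quartile and under TPM scaling. The chemokine genes Ccl3 and Ccl4, which Nr4a proteins are reported to restrain in mouse B cells, rose after CpG-A, Ccl3 from 4.54 ± 1.21 to 74.3 ± 3.07 FPKM (limma, adjusted p 8.71e-07) and Ccl4 from 2.62 ± 0.694 to 44.7 ± 5.75 (adjusted p 2.46e-07). Ccl3 averaged 23.1 ± 8.50 FPKM after CpG-B and 49.95 ± 11.3 after CpG-C. Ccl4 was the 1 gene of this list that differed between CpG-C and CpG-B, at 16.4 ± 5.94 against 4.42 ± 0.590 FPKM (adjusted p 0.00986). The calls of Ccl4 and of Jun above were both lost with the 2 groups alone (limma, adjusted p 0.319 each) and without CpG-B library 1, CpG-B library 2 or CpG-C library 1. Batf, an AP-1 family gene, rose from 12.3 ± 1.34 FPKM to 127 ± 28.9 after CpG-B and 133 ± 21.8 after CpG-C. It averaged 59.9 ± 4.23 after CpG-A. Cd86, a costimulatory ligand gene, fell from 8.54 ± 0.623 FPKM to 5.26 ± 0.716 after CpG-B and 4.13 ± 0.520 after CpG-C. List counts moved with the scaling: under upper-quartile scaling the ERK list had 4 higher and 18 lower after CpG-B and 6 and 20 after CpG-C, and the calcineurin list 2 and 11, 2 and 17 and 2 and 17 after CpG-A, CpG-B and CpG-C.

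**Figure D4:**
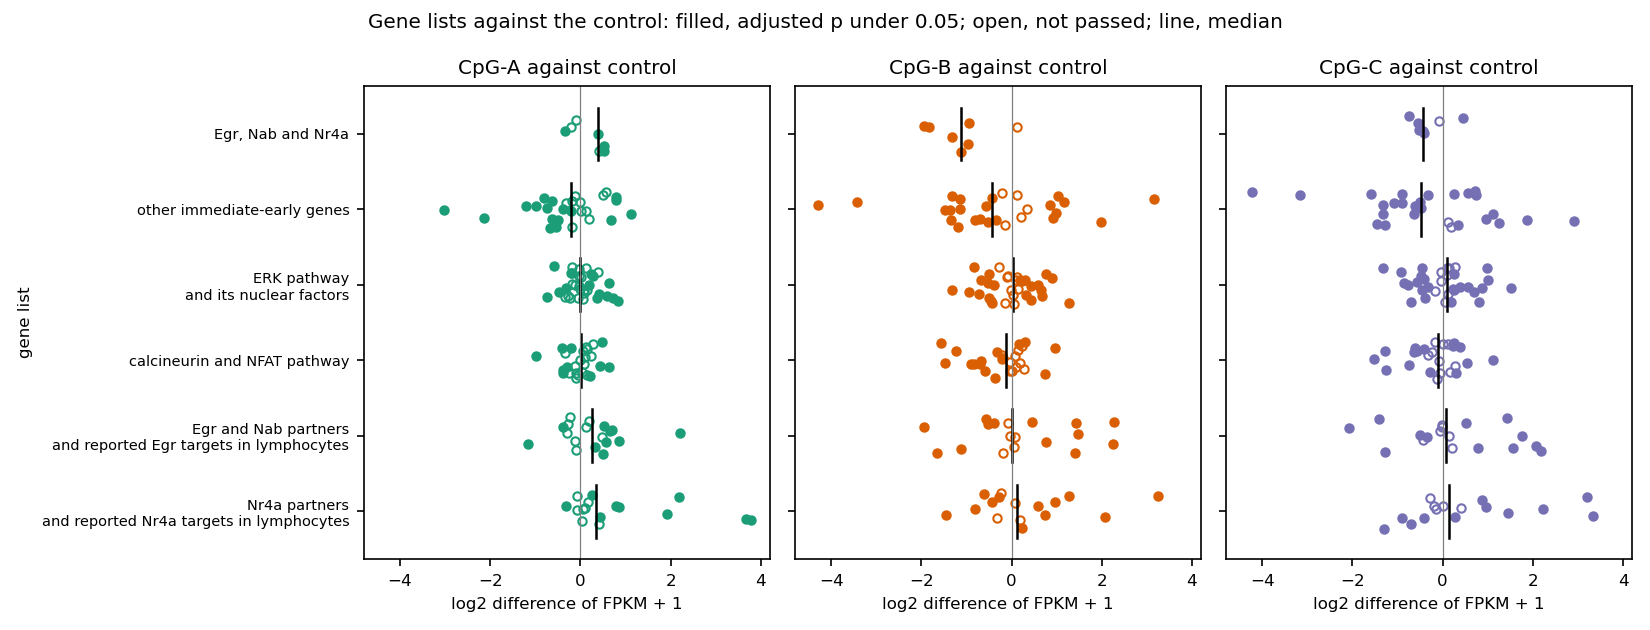
Log2 difference of FPKM + 1 from the control (horizontal axis) for the 7 tested members and the tested genes of 5 lists, by ODN class. Filled points passed an adjusted p under 0.05, open points did not, and the line is the median. The member median is -1.11 after CpG-B, and the medians of the 5 lists lie between -0.43 and 0.13 there. The members were selected on these values, so nothing is read from that contrast.

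Markers of other cells were low but moved with some members, and their part in the results was not tested. The monocyte and macrophage list (2 or 3 of 14 genes with a mean above 1 FPKM in a group) summed to 14.3 to 15.9 FPKM in the control, 17.8 to 18.7 after CpG-A, 6.10 to 7.01 after CpG-B and 6.94 to 9.62 after CpG-C, in the same group order as Egr1, Egr2 and Nr4a3. Most of that sum was Adgre1 (6.51, 11.8, 0.633 and 1.2 FPKM in the order control, CpG-A, CpG-B, CpG-C) and Cd68 (3.59, 5.13, 3.67 and 4.91). C1qa averaged 2.08, 0.30, 0.04 and 0.053 FPKM in that order, Mertk 0.867, 0.13, 0.037 and 0.027, and Itgam 0.077, 0.19, 2.05 and 1.99. The other 9 genes had group means of at most 0.343 FPKM, Csf1r, Cd14, Lyz2 and Fcgr1 among them, and Marco was at 0 after all 3 ODNs. T cell markers (9 of 10 in the table) summed to 6.13 to 9.05 FPKM in the control, 3.21 to 4.62 after CpG-A, 2.25 to 2.52 after CpG-B and 1.86 to 2.34 after CpG-C, highest in the control as were Egr3, Nab2 and Nr4a1. Lat was higher after CpG-B (1.32 FPKM in the control, 1.82 after CpG-B) and made up most of the sum there. Every other gene of the list, such as Thy1 (1.46 and 0.03) and Cd3e (1.37 and 0.08), was lower after CpG-B. Cd3g was higher after CpG-A (0.907 in the control, 1.23 after CpG-A). Dendritic cell markers were highest after CpG-B (10.1 to 23.6 FPKM, against 3.64 to 5.77 in the control), through Flt3 (0.477 FPKM in the control, 10.6 after CpG-B) and Ccr9 (0.93 and 3.77). Zbtb46 (1.94 and 0.21), Siglech (0.75 and 0.04), Cd209a (0.337 and 0.01) and Clec9a (0.03 and 0.0033) were lower after CpG-B. NK cell markers summed to 2.54 to 3.19 FPKM in the control and at most 2.09 in the treated groups, neutrophil markers to at most 2.31 in any library, and erythroid and platelet markers to 5.59 to 7.67 in the control and at most 3.16 elsewhere.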

How the data were processed

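RNA-seq libraries of 12 samples were grouped by their treatment label, with replicate numbers from their titles. The deposited table holds FPKM per gene, as the authors calculated it, to 2 decimals, and the authors' log2 ratios between groups, per the file headers. Tools credited to the submitters' processing notes are RSEM 1.2.8, Bowtie2 2.2.5, GATK, StringTie and HISAT, with build mm10. Gene positions and lengths are the deposited table's own. Entries that named no gene, 2 of 28021, were left out.

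FPKM are not counts, so limma's trend method (limma 3.58.1, R 4.3.3) was fitted to log2(FPKM + 1) of all 12 libraries with 4 group means. The 15853 rows tested (known genes 10860, unnamed loci 4993) exceeded 1 FPKM in 3 or more libraries, and adjustment over all of them followed Benjamini and Hochberg. The fit was checked on simulated data with independent values per library and a small set of genes changed in CpG-B only. That check does not cover libraries that deviate together or changes in most genes. Python 3.11.15, pandas 2.3.3 and matplotlib 3.10.9 were used for the rest. Depth was estimated from the steps between low FPKM values: 92.4% to 95.8% of them were no more than 0.2 from a whole fragment (40% if spread evenly), taking effective length as the transcript less 100 bases.

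The members and the gene lists were chosen with earlier results of these data known. From each of 5 lists and each comparison with the control, the text names up to 2 highest and 2 lowest changes among passing genes whose higher group averaged 5 FPKM or more and whose libraries did not overlap, plus, for each tested member, the 3 known genes with the highest Pearson r. Of the genes that this rule picks, 1 is not reported here. List genes called between CpG-C and CpG-B, marker genes and values of named genes in further groups were added after seeing them. Whether replicate numbers pair libraries was checked by correlating deviations from group means across genes, which are not independent replicates: 6 of 18 same-numbered pairs exceeded 0.1. All 3 pairs did so only for CpG-B with CpG-C (0.71, 0.62 and 0.79), where libraries 1 and 2 correlated as well crossed (0.66 and 0.67). A blocked fit is given for that comparison. It sets 1 effect per replicate number across all 12 libraries, so it does not model a pairing of CpG-B with CpG-C alone. Both of the following choices were made after seeing output: where a lower depth scored nearly as well as the best one it was taken, because the first estimates for control libraries 1 and 2 came out about doubled, and the tested genes were held fixed when a library was left out or values were rescaled, where the filter had first been reapplied. Alternatives changed the pseudocount (0.1, 0.5), the filter, the scaling, the genes and groups fitted, the replicate block and the libraries left out.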

Additional observations from a re-analysis of the deposited data

How the results depend on the processing

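Of 708 member differences under 23 alternatives, 655 kept their direction and side of the threshold, 30 lost the call, 19 gained one and 4 turned: Nab1 with CpG-C against CpG-A to 0.027 under median-of-ratios scaling, Nab1 with CpG-B against the control to -0.15 under upper-quartile scaling and -0.15 under TPM scaling, and Egr1 with CpG-C against the control to 0.00 without the first control library (-0.167 to 0.00 with 1 library left out). The cause of these turns was not tested. Scaling moved the median of all genes tested, unnamed loci included. With CpG-B against the control it went from -0.32 to -0.59 (upper-quartile) and -0.61 (TPM). With CpG-A it went from -0.16 to -0.26 (median-of-ratios), -0.39 (upper-quartile) and -0.30 (TPM). For known genes alone the median before rescaling was 0.002 with CpG-B and 0.049 with CpG-A. The Egr1 call with CpG-A was lost under upper-quartile scaling, and the Nab1 call with CpG-C under upper-quartile and TPM scaling. Nr4a1 with CpG-A was lost without CpG-A library 2 or 3 or any 1 control library, and Egr2 with CpG-C without the first or second CpG-C or control library. Nr4a3 in CpG-C against CpG-B was lost without any 1 of the 6 libraries, without both number 3 libraries of these groups, with no filter, under upper-quartile scaling and with the replicate block (adjusted p 0.0616 in limma). The replicate block lost no other member call.

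Genes past the threshold numbered 10426, 12294 and 12268 for CpG-A, CpG-B and CpG-C against the control. Without a filter they were 16891, 19869 and 19856, with a 5 FPKM filter 5191, 6578 and 6590, and with known genes only 5873, 7609 and 7626, as more or fewer genes were tested. For CpG-C against CpG-A, 6456 became 3977 with the 5 FPKM filter and 3820 to 5584 with 1 library left out. For CpG-C against CpG-B, 29 became 19 without a filter, 87 without the third libraries, 0 with those 2 groups alone (0 of 7 members), and 1 to 28 with 1 library left out, with 1 to 4 members called. The share of calls that were higher moved from 35.9% to 19.4% (upper-quartile) with CpG-A, from 33.1% to 21.1% and 21.8% (TPM) with CpG-B and from 33.8% to 19.5% and 23.5% (TPM) with CpG-C, all against the control. Against CpG-A it moved from 29.4% to 44.2% (median-of-ratios) and 15.1% (TPM) with CpG-B and from 28.1% to 42.0% and 15.3% with CpG-C, and for CpG-C against CpG-B from 62.1% to 78.3% (TPM). Of the values of named list genes under the alternatives, 1023 kept direction and call and 13 lost the call, Mapk3, Jun and Ccl4 among them. Depth limits Nr4a2, and the number of libraries limits all intervals.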
